A study of Mus musculus with 8 samples.

Results

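Tau and its relatives are the proteins that bind microtubules, and their genes are described here across the cell types of the mouse hippocampus. The group holds 10 of the 30211 features counted: Mapt, Map1a, Map1b, Map2, Map4, Map6, Map7, Dclk1, Stmn2 and Stmn4. They were chosen by gene symbol, with earlier results of these data known. Nuclei were isolated from the hippocampus of C57BL/6 mice (C57BL/6N in the methods) and profiled by droplet single-nucleus RNA sequencing, 1 library per mouse. WT and GKO mice (3 of each, aged 7 mo) were compared. GKO mice lack GSAP, the γ-secretase activating protein, through a germline deletion made with CMV-Cre, so the loss is not limited to a cell type. In addition, a J20;WT mouse and a J20;GKO mouse, 1 each and both aged 6 mo, carried human APP with the Swedish and Indiana mutations under the PDGFB promoter, and the J20;GKO mouse lacked GSAP as well. The methods state that littermates of both sexes, obtained by in vitro fertilization, were used, but not which mice shared a litter. The p-values therefore measure the spread between these mice only.

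Microtubules are hollow polymers of tubulin that give axons, dendrites and glial processes their shape and serve as tracks for transport. Tau (Mapt), MAP2 (Map2) and MAP4 (Map4) share a repeat domain that binds the polymer, and tau is best known from axons and from the neurofibrillary tangles of Alzheimer disease, while MAP2 marks dendrites. MAP1A, MAP1B and MAP6 are further structural binders, MAP7 recruits kinesin motors, DCLK1 is a kinase with a doublecortin domain, and the stathmins STMN2 and STMN4 bind tubulin dimers and favour disassembly.

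A total of 32041 nuclei were kept, between 2731 and 5252 per library, with 21020159 to 43310978 UMIs (unique molecular identifiers, the count of captured RNA molecules) and a median of 4579 to 6438.5 per nucleus. Clusters were named by the closest class of a marker list, and each name below stands for nuclei that resemble that type. All 10 oligodendrocyte, 10 microglia, 11 astrocyte, 9 OPC (oligodendrocyte precursor cell) and 12 excitatory markers were highest in their own type, as were 12 of 14 inhibitory, 7 of 8 dentate granule, 5 of 8 CA1 and 5 of 8 CA3 markers. The same lists gave the names, so these counts are no independent check of them. Gsap itself lay at 22.3 to 23.0 CPM (UMIs of the gene scaled to a fixed library total) over all nuclei in the WT libraries. It was little lower, though without overlap, at 19.8 to 22.0 in the libraries labelled GKO. J20;WT was at 19.9 and J20;GKO at 21.1, in the opposite order, so the Gsap level did not check the labels. The paper deleted only some exons, and reported their excision by genomic PCR and reduced Gsap mRNA by quantitative RT-PCR. By the dates in the deposited names, WT mouse 1 and GKO mouse 1 share date 1, the other WT and GKO mice and the J20;GKO mouse share date 2, and the J20;WT mouse has date 3. Xist was at 2135 CPM or more in WT mouse 1, GKO mouse 1 and J20;GKO and at 3.00 or less in the other 5 libraries, so date 1 and this difference cannot be told apart among WT and GKO mice. Pairs of libraries shared at most 0.549% of the barcodes of the smaller library.

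In the GRCm38 annotation all 10 are protein-coding genes. Mapt lies at chr11:104231390-104332090, Map2 at chr1:66175273-66442583, Map4 at chr9:109931460-110083955, Map6 at chr7:99267447-99337137, Map7 at chr10:20148471-20281590, Dclk1 at chr3:55242364-55539068, Stmn2 at chr3:8509360-8561606, Stmn4 at chr14:66344296-66361680 and Map1a at chr2:121289600-121310832, all on the plus strand. Map1b lies on the minus strand at chr13:99421446-99516540. Stmn2 and Stmn4 overlap no other annotated gene. The other 8 do, among them Map2 with Gm10558, Map1b with 5330431K02Rik and Mapt with Gm11659, and since the sources used here do not state that counting used strand, their values may hold reads of those neighbours. The levels of different genes were not set against each other, because UMI counts were not scaled per length.

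RefSeq promoters of 300 bases (250 before the start and 50 after it, GRCm38.p6) were found for 6 of the 10 genes. Shown are Map7 and the upstream start of Map4, both highest in oligodendrocytes, and Map2 and Map1b, both highest in neurons, so that the starts of genes with opposite patterns can be read side by side. They run 5′ to 3′ on the strand of the gene, at chr10:20148670-20148969, chr9:109931524-109931823, chr1:66175079-66175378 and, on the minus strand, chr13:99516553-99516852. Capitals mark GC boxes, the letters GGGCGG on either strand.
Map7: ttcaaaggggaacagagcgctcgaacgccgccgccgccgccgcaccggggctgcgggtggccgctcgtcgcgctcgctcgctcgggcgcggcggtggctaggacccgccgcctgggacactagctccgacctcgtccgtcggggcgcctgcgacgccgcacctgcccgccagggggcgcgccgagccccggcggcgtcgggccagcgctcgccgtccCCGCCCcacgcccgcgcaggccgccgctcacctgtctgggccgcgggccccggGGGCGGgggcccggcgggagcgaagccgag
Map4: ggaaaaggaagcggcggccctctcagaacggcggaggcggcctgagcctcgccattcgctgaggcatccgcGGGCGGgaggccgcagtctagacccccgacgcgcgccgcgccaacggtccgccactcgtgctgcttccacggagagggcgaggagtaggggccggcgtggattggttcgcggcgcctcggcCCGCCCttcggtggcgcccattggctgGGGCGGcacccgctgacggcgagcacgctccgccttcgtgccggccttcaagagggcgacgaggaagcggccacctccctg
Map2: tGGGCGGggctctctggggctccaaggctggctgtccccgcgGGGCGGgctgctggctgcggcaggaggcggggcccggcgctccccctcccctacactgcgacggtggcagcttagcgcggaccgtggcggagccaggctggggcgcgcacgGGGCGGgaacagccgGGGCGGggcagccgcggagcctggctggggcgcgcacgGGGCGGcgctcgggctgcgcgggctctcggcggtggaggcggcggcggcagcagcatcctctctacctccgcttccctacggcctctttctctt
Map1b: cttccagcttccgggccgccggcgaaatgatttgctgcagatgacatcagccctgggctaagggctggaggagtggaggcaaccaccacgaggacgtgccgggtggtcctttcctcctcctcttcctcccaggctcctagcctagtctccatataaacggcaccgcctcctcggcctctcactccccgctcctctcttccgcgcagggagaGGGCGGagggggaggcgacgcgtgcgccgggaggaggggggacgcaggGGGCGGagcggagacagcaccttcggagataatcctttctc
All 4 are rich in G and C, at 81.7% in Map7, 73.3% in Map4, 77.7% in Map2 and 65.7% in Map1b. Map7 held 2 GC boxes, Map4 3, Map2 5 and Map1b 2, while 35.7% of all 32851 promoters of this length held at least 1. The Map1a promoter held 4. Both starts of Dclk1 (52.7% and 50.3% G and C) and the downstream start of Map4 (46.0%) held none. The letters ACAAAG, a core that SOX factors bind, were in none of the windows of the 6 genes and in 18.7% of all promoters, and the E box CACGTG was in none of them and in 7.15% of all.

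The first question was in which cell types each gene is transcribed. Mapt was highest in oligodendrocytes, the myelinating cells, by 4.31 times over excitatory neurons. In oligodendrocytes it lay at 2761, 2703 and 2471.1 CPM in the WT mice, at 2597, 3005 and 2716 in the GKO mice, while the J20;WT mouse had 2397 and the J20;GKO mouse 2601. Excitatory neurons ranged from 560.1 to 712.4 CPM and never reached the oligodendrocyte range. Behind them followed inhibitory neurons at 563 ± 38.1 (SD, n = 8 libraries), OPCs at 512 and astrocytes at 461, and each of these overlapped its neighbour in the order. Microglia stood below all other types at 152 CPM, with a range of 105 to 265 whose top was WT mouse 1.

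How the level is expressed matters for tau. CPM gives the share of a nucleus's RNA, and neuronal nuclei held several times more RNA, with a median of 7670 to 12979 UMIs in excitatory neurons against 1857.5 to 2583 in oligodendrocytes. Counted per nucleus, Mapt gave 6.28 UMIs in oligodendrocytes (5.02 to 7.24), 7.63 in excitatory neurons (5.13 to 10.6) and 7.63 in inhibitory neurons (5.63 to 10.9), so the ranges overlapped and the order of the means turned. With every nucleus thinned to 1000 UMIs, 90.5% to 93.9% of oligodendrocytes and 39.9% to 47.3% of excitatory neurons held a Mapt UMI, against 98.0% to 99.5% and 90.3% to 98.4% without thinning. Among all 10 genes the top type by UMIs per nucleus was that by CPM in 7. The exceptions were Mapt, with excitatory neurons on top, and Map1a and Map4, with inhibitory neurons on top.

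**Figure D1:**
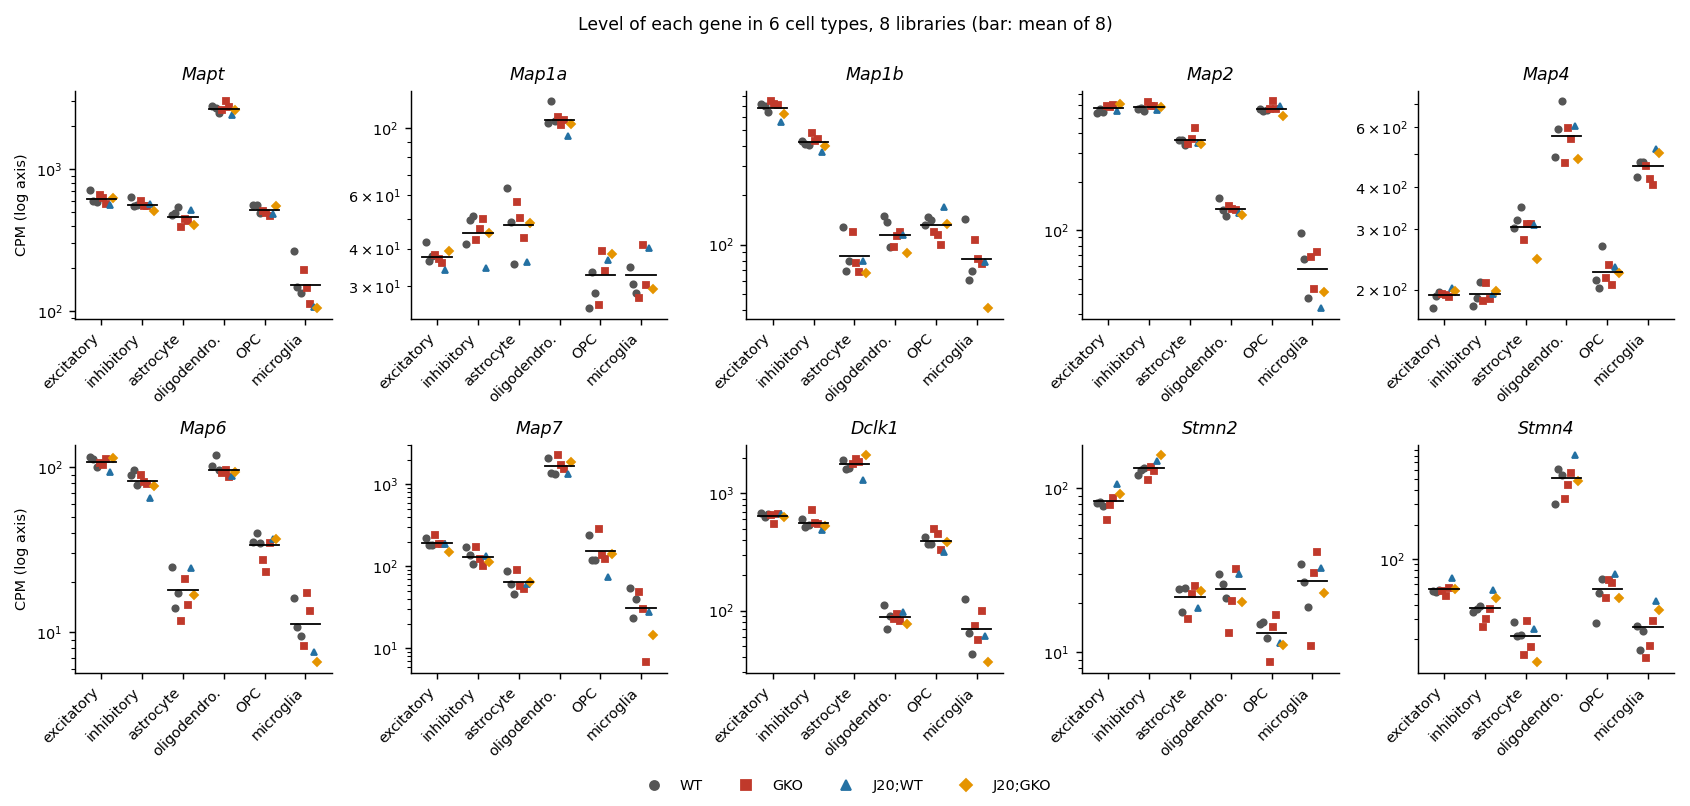
CPM of the 10 genes (log axis) in 6 cell types, 1 point per library by group, with a bar at the mean of 8 libraries. Mapt, Map7 and Stmn4 stand apart in oligodendrocytes (means 2656, 1689.9 and 512), Dclk1 in astrocytes (1772), and Map1b and Stmn2 in neurons.

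Map2, the dendritic relative of tau, showed another order. It was alike in inhibitory neurons (549 to 624 CPM), excitatory neurons (537 to 611) and OPCs, the precursors (509.9 to 636), whose ranges overlapped. In oligodendrocytes it lay at 122 to 159 CPM and in microglia at 32.6 to 95.5, below every other type. Map4, the member of the family that is widespread outside the nervous system, was higher by CPM in oligodendrocytes, microglia and astrocytes than in excitatory and inhibitory neurons. Its means were 563 CPM in oligodendrocytes (471 to 714), 460.4 in microglia (404 to 517), 304 in astrocytes and 193 in excitatory neurons. Oligodendrocytes and microglia overlapped, and both lay above astrocytes. OPCs (225 CPM, 203 to 267) overlapped inhibitory neurons (179 to 211). Over 17 types and subtypes the log2 levels of Map2 and Map4 had a Pearson correlation of -0.82, the lowest of all pairs of the 10 genes, with the types sharing the same 8 libraries.

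The MAP1 family divided between the cell classes. Map1b, prominent in growing neurons, was at 673 CPM in excitatory neurons (552 to 746), at 419 in inhibitory neurons (367 to 478) and between 82.2 and 132 on average in glia. Both neuronal ranges were clear of each other and of glia. Map1a, its counterpart in mature neurons, had its highest share in oligodendrocytes, at 106 CPM (94.2 to 123), against 47.9 in astrocytes, 45.1 in inhibitory and 37.5 in excitatory neurons. Map6, which makes microtubules stable in the cold, lay at 107 CPM in excitatory neurons, 96.6 in oligodendrocytes and 81.9 in inhibitory neurons, and neighbours in that order overlapped. In microglia it was at 11.2 CPM.

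Map7 and Stmn4 joined tau in oligodendrocytes. Map7 lay there at 1689.9 CPM (1327 to 2276), 8.73 times the 194 CPM of excitatory neurons, and among the other 5 broad types no library passed 282.4 CPM. Stmn4 lay there at 512 CPM (304 to 808), 9.33 times the 54.8 CPM of OPCs. Per nucleus both also led in oligodendrocytes. Dclk1 was the astrocyte gene of the group, at 1772 CPM (1295 to 2120), 2.77 times the 640.3 CPM of excitatory neurons and far above the 87.7 CPM of oligodendrocytes. Stmn2, known from growing axons, was at 133 CPM in inhibitory neurons (113 to 159) and 83.7 in excitatory neurons (63.5 to 106), and between 13.1 and 27.2 on average in glia.

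Free RNA gives UMIs in nuclei that do not transcribe a gene, so each glial level was read beside 7 neuron-only genes such as Slc17a7 and Snap25. These reached at most 0.199 of their excitatory level in astrocytes, 0.260 in OPCs, 0.286 in oligodendrocytes and 0.316 in microglia. In astrocytes and OPCs 8 of the 10 genes lay above that limit, in oligodendrocytes 7 and in microglia 4. The oligodendrocyte ratios of Map1b (0.170), Map2 (0.235) and Dclk1 (0.137) lay below it. That limit was set by Nrgn alone, and the other 6 genes reached at most 0.134, below all 3, so background and a low level cannot be told apart here. In microglia Mapt (0.246), Map1b, Map2, Map6, Map7 and Dclk1 lay below it, and Stmn2 there (0.326) was at the limit, while Map4 (2.39) was well above. Nrgn alone set the microglial limit too, and the other 6 genes reached at most 0.144, below Mapt and Map7 (0.159). Background and a low level of Mapt and Map7 cannot be told apart in microglia either. Stmn2 in oligodendrocytes (0.289) was likewise at the limit. Nrgn alone also set the astrocyte limit, and the other 6 genes reached at most 0.116, below Map1b (0.127) and Map6 (0.169). Snap25 alone set the OPC limit, and the other 6 reached at most 0.176, below Map1b (0.196) but above Stmn2 (0.156). Background and a low level cannot be told apart for these ratios either.

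Oligodendrocytes fell into 5 clusters, of which clusters 3 and 11 were each compared with cluster 7. Stmn4 was 1.81 times higher in cluster 3 and 1.73 times higher in cluster 11 than in cluster 7, in 8 of 8 libraries each. Mapt in cluster 11 was 0.80 of that in cluster 7 and lower in 8 of 8 libraries, and Map7 in cluster 3 was 0.85 of that in cluster 7, again lower in 8 of 8. The 10 genes took no part in the clustering, but genes that vary with them did, so these differences are a description. A small cluster of 77 nuclei, left unnamed because the doublet caller marked 25 of 61 nuclei (41.0%), counting only the 6 libraries in which it worked, and with Gpr17, Enpp6 and Bmp4 among its leading genes, held 10.4 times the Map1b of OPCs (4.63 to 17.2 over the libraries), 2.96 times the Mapt and 1.64 times the Map2, higher in 8 of 8 libraries for each. It held 5 to 14 nuclei per library, and the part of doublets in these ratios was not tested. Both astrocyte clusters held Dclk1, at a ratio of 1.24 (1.09 to 1.52).

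**Figure D2:**
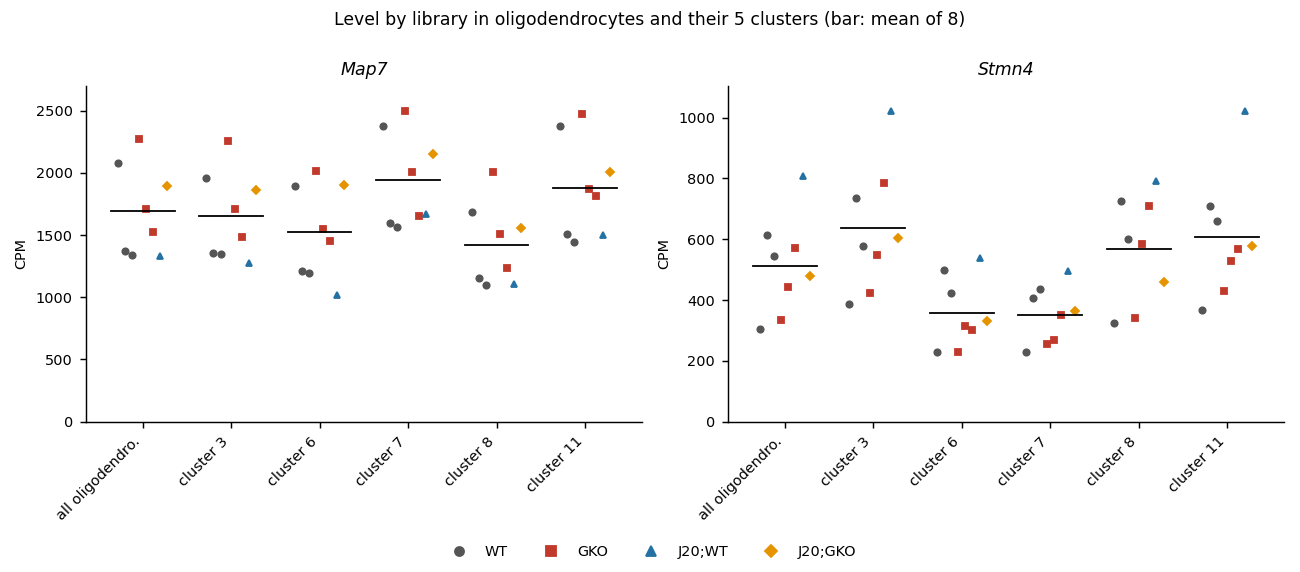
CPM of Map7 and Stmn4 in all oligodendrocytes and in their 5 clusters, 1 point per library by group, with a bar at the mean of 8 libraries. Map7 is higher in WT mouse 1, GKO mouse 1 and J20;GKO (1892 to 2276 over all oligodendrocytes) than in the other 5 libraries (1327 to 1711), and Stmn4 is highest in J20;WT (808).

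Among excitatory neurons the dentate granule cells, the input neurons of the hippocampus, differed most. Map1b averaged 989 CPM there (683 to 1172) and 613 in CA3 (548 to 639), without overlap, and 475 in CA1. It was higher in granule than in CA1 neurons in 8 of 8 libraries, by 1.64 to 2.42 times. Stmn2 had the opposite order. It averaged 144 CPM in CA3, 136 in deep-layer cortex, 134 in upper-layer cortex and 129 in subiculum, which overlapped, then 75.2 in CA1 and 22.7 in granule cells, each below its neighbour in every library. In the 6 mice without the APP transgene the granule level of 16.1 to 18.8 CPM was within the range of oligodendrocytes (13.1 to 32.3). Mapt had its highest mean in CA3 (848 CPM, 665 to 1034), which overlapped deep-layer cortex (681, 555 to 829). It was lowest in granule cells (463 CPM, 435 to 519), and the CA3 to CA1 ratio was over 1 in 8 of 8 libraries (1.16 to 1.53).

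Other genes divided the subfields more weakly. Stmn4 was lower in CA3 (27.8 CPM) than in CA1 (59.4) in 8 of 8 libraries, and Dclk1 was likewise lower in CA3 (457) than in CA1 (606). Map1a was higher in granule than in CA1 neurons in 8 of 8 libraries, by 1.31 times. Map6 was highest in subiculum and cortical neurons (139.7, 143 and 146 on average) and at 83.4 to 101 in CA3, CA1 and granule cells. The unnamed subcluster E10, with 13 to 42 nuclei per library and Npas4 and Fos among its leading genes, had the highest mean of Dclk1 among neurons. Its range of 825 to 1858 CPM overlapped upper-layer cortex (556 to 1037), and in J20;WT it was lower (825 against 892). Among interneurons Map1b was highest in Pvalb cells (518 CPM, 442 to 626) and lowest in Lamp5 cells (280, 239 to 311), which did not overlap. Map2 and Stmn2 were highest in Cnr1-high cells, at 723 and 192 CPM, and both overlapped their neighbours in the order.

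**Figure D3:**
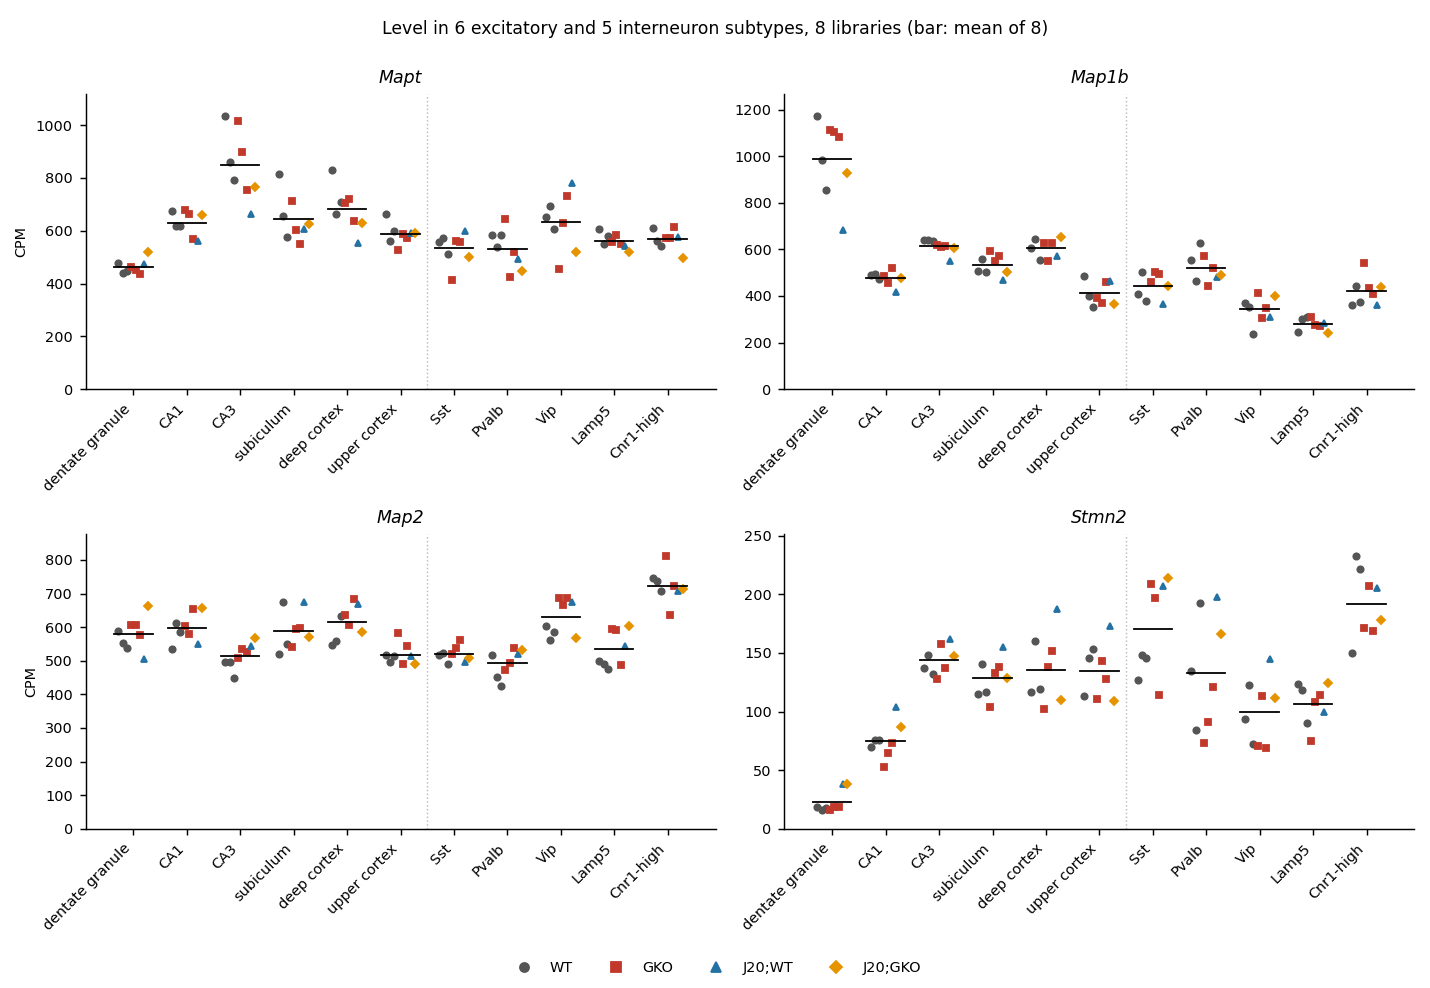
CPM of Mapt, Map1b, Map2 and Stmn2 in 6 excitatory and 5 interneuron subtypes, 1 point per library by group, with a bar at the mean of 8 libraries. Granule cells hold the most Map1b (989) and the least Stmn2 (22.7). CA3 neurons have the highest mean of Mapt (848), in a range that overlaps deep-layer cortex.

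Likeness between genes was described over the 17 named types and subtypes, as the Pearson correlation of log2(CPM + 1) among 12284 genes. Mapt was most like Gm11659 (0.94), which is annotated inside it on the opposite strand and whose counts may therefore be reads of Mapt, and then like Map7 (0.92) and Slain1 (0.92), whose protein follows growing microtubule ends. Map7 was most like Dbndd2 (0.94), and Stmn4 most like Zfp365 (0.93). Both had the choline transporter Slc44a1 among their 3 nearest genes. Map1b was most like Celf3 (0.95), an RNA-binding protein of neurons, and Bsn (0.95), which encodes the presynaptic protein bassoon. Map2 was most like the kainate receptor gene Grik5 (0.95), Stmn2 like Snhg11 (0.94), Map6 like Ppp2r2c (0.94), Dclk1 like AC134414.1 (0.95), Map4 like Txlna (0.92) and Map1a like 1700042O10Rik (0.89).

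The main comparison asked whether loss of GSAP changes these genes. Counts were summed per mouse and type and the 3 libraries labelled GKO were compared with the 3 WT libraries in 25 groups of nuclei (all nuclei together, 6 broad types, 11 named neuronal subtypes and 7 unnamed subclusters). A call needed an adjusted p below 0.05 together with a log2 fold change beyond ±0.3. Of 250 combinations 247 passed the filter on low counts, and 0 were called by edgeR's quasi-likelihood test, nor by DESeq2. Over all genes 0.000405% of tests were called. At an unadjusted p under 0.05 there was 1 of 247, against 1.94% of tests over all genes. It was Stmn4 in upper-layer cortical neurons, at 49.8, 52.3 and 91.5 CPM in WT mice and at 34.5, 37.0 and 45.6 in GKO mice (log2 fold change -0.59, SE 0.24, adjusted p = 1.00). With the replicate number as a block, which also separates the dates, 8 of 247 tests (3.24%) were at an unadjusted p under 0.05, against 4.51% of tests over all genes, with Stmn4 first (-0.68, adjusted p = 0.276) and Map7 in oligodendrocytes next (0.23, adjusted p = 0.511), and none was called.

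Tau was close to level between the genotypes. In excitatory neurons Mapt was at 712, 599 and 590.2 CPM in WT mice and at 661, 622 and 564 in GKO mice, which overlapped (log2 fold change -0.02, SE 0.13, adjusted p = 1.00). In oligodendrocytes the log2 fold change was 0.09 (SE 0.16, adjusted p = 1.00). In astrocytes the GKO libraries lay below the WT libraries without overlap, at a log2 fold change of -0.25 (SE 0.13, adjusted p = 1.00). Over the 24 types Mapt was higher in GKO mice in 7, with a median of -0.09. Map2 was higher in GKO mice in 23 of 24 types, with a median of 0.11 and no fold change over 0.24. These types come from the same 6 mice and are no independent replicates.

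The remaining genes had medians between -0.10 and 0.07 over the types. In oligodendrocytes Map7 gave 0.23 (SE 0.23), with 0.46 without WT mouse 1 and 0.04 without GKO mouse 1, and Stmn4 -0.10 (SE 0.28). In astrocytes Dclk1 was at 1935, 1609 and 1639 CPM in WT mice and at 1768, 1953 and 1855 in GKO mice (0.11, SE 0.13). In granule cells Map1b was at 1172, 983 and 856 CPM in WT mice and at 1110.0, 1102 and 1081 in GKO mice (0.14, SE 0.14). The CPM ranges of 3 WT and 3 GKO mice did not overlap in 22 of 250 combinations, or 8.80%, against 6.69% over all genes. The GKO effect was also compared between granule and CA1 neurons and between excitatory and inhibitory neurons with the mouse as a block. None of the 10 genes differed by edgeR's test (0 of 20, and 0.00% over all genes, with 0 of the 10 genes at an unadjusted p under 0.05).

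**Figure D4:**
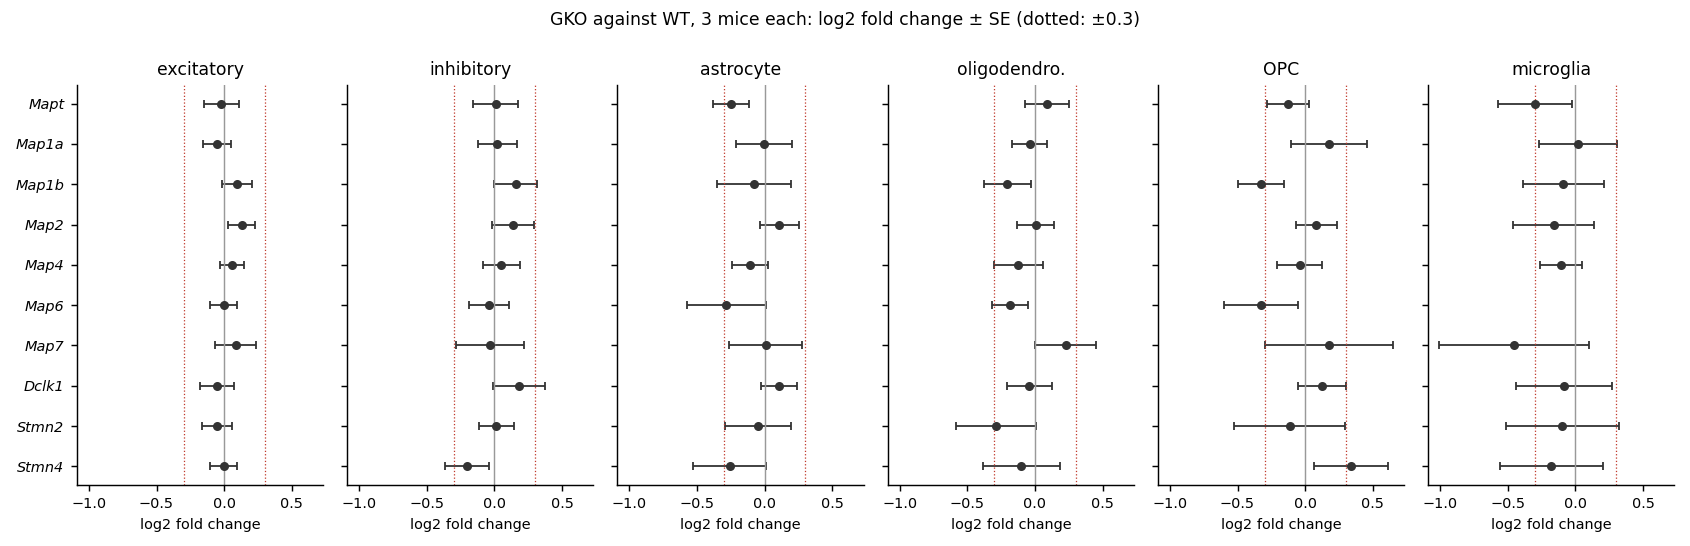
Log2 fold change of GKO against WT (3 mice each, points) with its SE (bars) for the 10 genes in 6 cell types, with dotted lines at ±0.3. Most points lie between the lines, and the widest bars belong to Map7 in OPCs and microglia.

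The wider microtubule machinery was examined with lists of 114 genes: tubulins, other binders, severing and tubulin-modifying enzymes, motors, and the kinases and phosphatases of tau. None of 2310 tests was called by edgeR, nor by DESeq2. At an unadjusted p under 0.05 by edgeR there were 36, against 1.94% of tests over all genes. Tubulins, the subunits of the polymer, supplied 22 of these in 194 tests, and all 22 were lower in the GKO libraries. Their median log2 fold change was -0.24, against 0.00 to 0.03 for the other lists. Each gene was counted over the groups of nuclei in which it was tested, all nuclei together included. Tuba1b was lower in 22 of 22 (median -0.42), Tubb5 in 20 of 20 (-0.31) and Tuba4a in 19 of 20 (-0.40). Tubb4b was lower in 20 of 22 (-0.27) and Tubb2a in 22 of 25 (-0.26). The shift was smaller for Tubb4a, lower in 18 of 25 (-0.08), and Tubb2b, lower in 11 of 14 (-0.12). Tubd1, Tube1 and the γ-tubulin genes Tubg1 and Tubg2 had medians above 0. The lower level was thus not shared evenly by all tubulins. These groups are nested and come from the same 6 mice, so they are no independent replicates. In excitatory neurons Tuba1b was at 26.1, 17.3 and 21.9 CPM in WT mice and at 16.6, 15.0 and 13.8 in GKO mice. Tuba4a there was at 23.4, 24.8 and 23.5 against 16.2, 17.0 and 20.4, and neither gene overlapped. In granule cells Tuba1b overlapped (13.5 to 26.6 CPM in WT and 11.9 to 21.1 in GKO mice) and Tuba4a did not. Both overlapped in oligodendrocytes and astrocytes. Tuba1b was also a leading gene of an unnamed cluster with a median of 740 UMIs. The part of free RNA in the tubulin levels was not tested. The lowest p was that of Tuba1b in subcluster E6 (-1.08, SE 0.32, adjusted p = 0.999). No tubulin passed the adjusted threshold in any of the alternatives. The count at an unadjusted p under 0.05 ranged from 12 of 194 with DESeq2 to 43 of 205 with the replicate block. With that block 4.51% of tests over all genes were under it. In the other lists the tests at an unadjusted p under 0.05 were 3 of 660 for binders and 5 of 405 for modifying enzymes. They were 2 of 535 for motors and 4 of 516 for kinases and phosphatases. Each of these shares was below the 1.94% over all genes. Among these tests were Dcx in OPCs (0.53), Katnal2 in subcluster E9 (0.78), Kif21a in OPCs (-0.57) and Ppp2ca in subcluster E7 (-0.72). Mtus2 gave -0.88 in OPCs and 0.83 in microglia.

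Some differences followed the dates in the deposited names. Map7 was higher in both date 1 libraries than in the 4 date 2 WT and GKO libraries in 19 of 24 types, Mapt in 12 and Map1b in 7, against 11.4% of all gene and type combinations. Map4 was lower in both in 7 of 24, against 18.5% over all genes. In OPCs Map7 was at 244 and 282 CPM at date 1 and at 118 to 140 in the date 2 WT and GKO libraries. The J20;GKO library of date 2, which shares the high Xist with date 1, was at 141 CPM there and J20;WT at 73.6. In oligodendrocytes Map7 was also high in J20;GKO (1892 CPM). For Map7 the 3 libraries with high Xist lay above the other 5 in all nuclei, astrocytes, oligodendrocytes and OPCs. They did so too in Pvalb interneurons and subclusters E7 and I0, and overlapped in the other groups of nuclei. In CA1 neurons J20;GKO was the lowest of the 8 libraries for Map7 (126 CPM against 160.2 to 244). Stmn4 in oligodendrocytes went the other way, at 304 and 333 CPM at date 1 and at 442 to 615 CPM at date 2. Date 1 holds 1 WT and 1 GKO mouse.

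The J20 mice gave 1 library per genotype, so J20;GKO and J20;WT were set side by side without a test, as log2 ratios, for genes that reached 50 UMIs over both libraries. Date, genotype and the Xist difference cannot be told apart in this pair. Of 204 values of the 10 genes 62 (30.4%) were over 0.3 in size, against 43.6% over all genes. Those that were also beyond every pair of mice of 1 genotype numbered 30 (14.7%), against 20.9% over all genes. Dclk1 in astrocytes was at 2120 CPM in J20;GKO and 1295 in J20;WT (0.71, 95% counting interval 0.60 to 0.82). In granule cells Map7 was at 119 and 215 CPM (-0.85, -1.02 to -0.69) and Stmn4 at 38.1 and 69.4 CPM (-0.86, -1.16 to -0.58). Mapt differed by -0.34 in astrocytes and by more than 0.3 in 3 of 25 groups of nuclei, all nuclei together included. Intervals cover counting error only.

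A comparison chosen after the values were seen set the 2 J20 libraries against the 6 WT and GKO libraries. Transgene and age differ together in it and cannot be told apart. Most calls fell in granule cells, with 6.98% of all genes called (3.17% higher), against 0.109% over the other groups of nuclei. Of the 246 tests of the 10 genes 1 was called, Stmn2 in granule cells. It was at 18.2, 16.2 and 17.9 CPM in WT mice, at 16.1, 18.8 and 18.8 in GKO mice, while the J20;WT mouse had 38.1 and the J20;GKO mouse 37.8. Both J20 libraries thus held about the same level, above all 6 others (log2 fold change 1.02, SE 0.12, adjusted p = 0.000197). It was called in each of 15 alternatives, with log2 fold changes from 0.98 to 1.10. In 3 of these, without either J20 library or with date 2 libraries alone, the J20 side holds 1 library, which is assumed to vary like the other groups. Per nucleus the J20 granule cells held 0.24 and 0.34 Stmn2 UMIs against 0.13 to 0.20 in the others. The share of granule nuclei with a UMI was 18.7% and 25.5% against 11.3% to 16.4%, and after thinning to 1000 UMIs 4.4% and 2.7% against 1.04% to 2.5%. Thinned oligodendrocytes held one in 1.36% to 3.58% over the 8 libraries, so only the J20;WT share lay above that range. In glia the same contrast gave -0.05 in astrocytes, 0.03 in oligodendrocytes and 0.03 in microglia.

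The other genes moved less in J20 granule cells. Map1b was at 683 CPM in the J20;WT library and 929 in J20;GKO, against 856 to 1172 in the other mice, and the groups overlapped (-0.46, SE 0.17, adjusted p = 0.126). With J20;WT as the lone J20 library it was called (-0.73, adjusted p = 0.0356). Map7 was at 119 CPM in J20;GKO, below the 177 to 205 of the 6 mice, and at 215 in J20;WT, above them (-0.26, SE 0.16, adjusted p = 0.396). With J20;GKO as the lone J20 library it was called (-0.71, adjusted p = 0.00363), and likewise among date 2 libraries alone (-0.66, adjusted p = 0.000544), where Map6 was called too (0.40, adjusted p = 0.0432). The J20 side has no replicate in these calls, and the spread comes from the other groups only. Mapt, Map2, Map4, Map1a and Dclk1 had log2 fold changes between -0.06 and 0.13, and Map6 and Stmn4 had 0.20 and 0.10, none called.

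**Figure D5:**
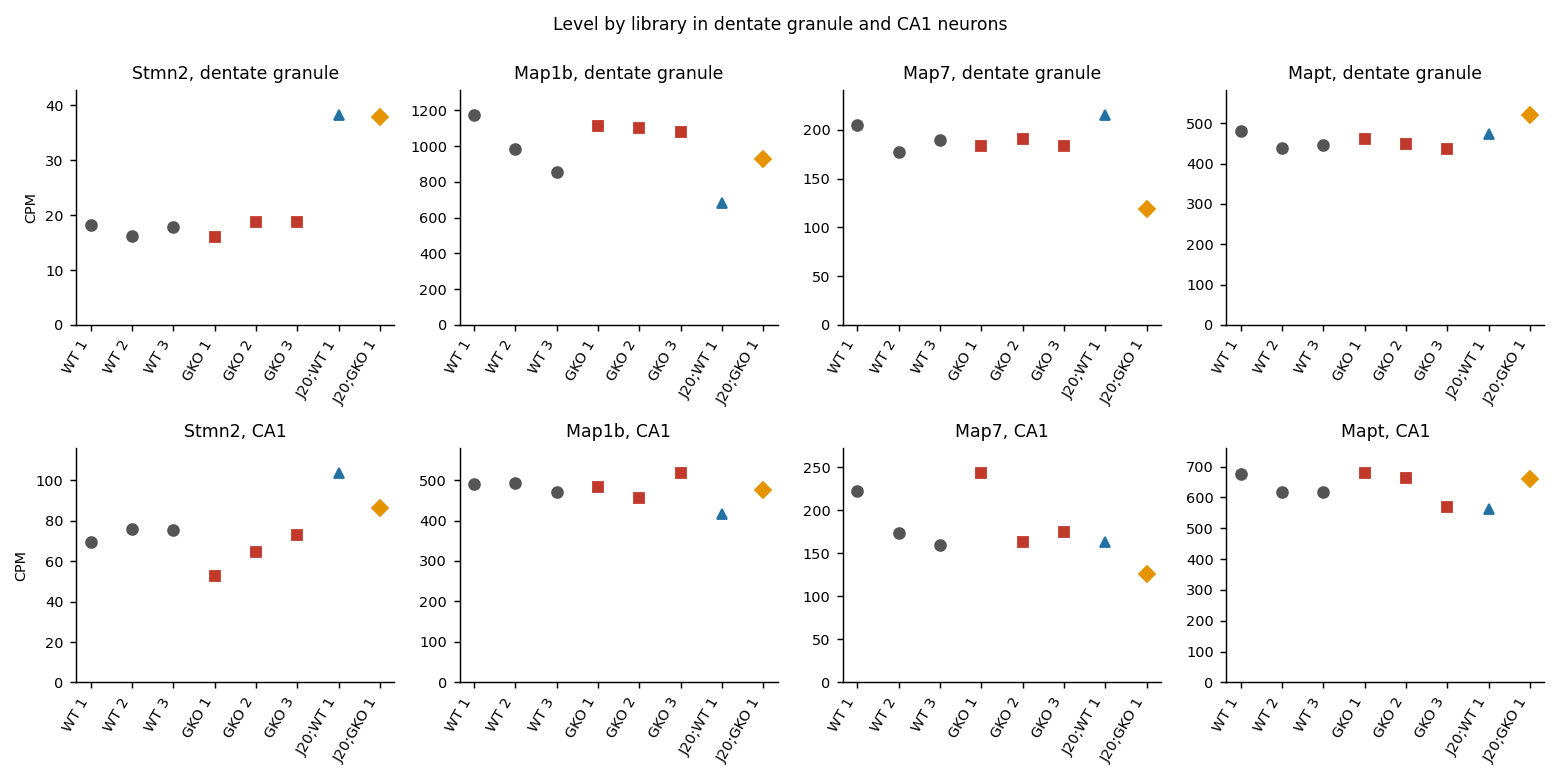
CPM of Stmn2, Map1b, Map7 and Mapt in dentate granule neurons (top) and CA1 neurons (bottom), 1 point for each of the 8 libraries. Stmn2 in granule cells is at 38.1 and 37.8 in the J20 libraries and at 16.1 to 18.8 in the others. The J20;GKO library is the lowest for Map7 in both types.

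The log2 fold change of Stmn2 between the J20 libraries and the others was larger in granule cells than in CA1 and CA3 neurons. It started there from a low level of 16.1 to 18.8 CPM, and differences in CPM were not compared between subfields. In CA1 the J20 libraries were at 104 and 86.5 CPM and the others at 52.8 to 76.0 (0.41, SE 0.13, adjusted p = 0.252), without overlap but not called, and in CA3 at 162 and 148 CPM against 128 to 158 (0.10, SE 0.12, adjusted p = 0.840). The difference of the effects was 0.60 between granule and CA1 neurons (SE 0.15, adjusted p = 0.0267) and 0.94 between granule and CA3 neurons (SE 0.13, adjusted p = 0.000190), in tests in which 2.91% and 2.85% of all genes were called. Mapt also differed between granule and CA3 neurons (0.43, SE 0.11, adjusted p = 0.0306), with 0.06 in granule cells and -0.36 in CA3, neither of which was called alone. In CA3 it lay at 665 and 767 CPM in the J20 libraries and at 753 to 1034 in the others.

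Of 105 list genes tested in J20 granule cells 7 were called (6.67%), a share near the 6.98% of all genes. Stmn1, another stathmin, was at 53.5 and 34.6 CPM against 16.3 to 28.5 (0.88, adjusted p = 0.00888), and Dcx, the doublecortin gene of young neurons, was at 22.6 and 31.0 CPM against 11.4 to 14.9 (0.98, adjusted p = 0.00452). The kinesin genes Kif17 (0.75) and Kif21b (1.36) were higher and Kif1c (-1.05) and Kif21a (-0.54) lower, and Ppp2r2b, a regulatory subunit of the phosphatase PP2A, was higher (0.44). Stmn3 missed the threshold (0.37, adjusted p = 0.0843). No tubulin, of 11 tested, was called, and their median was 0.22. Beside these, a list of 5 immature neuron genes summed to 87.4 and 136 CPM in the J20 libraries and to 48.3 to 55.5 in the others, with Sox11 (1.05, adjusted p = 0.00110) and Dcx called, Igfbpl1 and Draxin at 1.99 CPM or less in every library and Neurod1 at 0. Of 8 granule cell markers, Calb1 (-1.21), Dsp (-1.99) and Dock10 (-0.78) were lower, C1ql2 (0.71) was higher and 4 were not called, among them Prox1 at 239 and 182 CPM against 236 to 278 (-0.34, adjusted p = 0.123). The part of these genes in the Stmn2 level was not tested, and in sums over nuclei more nuclei with a transcript and more transcript per nucleus cannot be told apart.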

How the data were processed

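Single-nucleus libraries from 8 mouse hippocampi were analysed. The authors deposited a matrix of UMI counts per library, made with Cell Ranger on mm10 and not normalized, and the submitters' processing notes also name Seurat 3.0 and R 3.6.2. Whether introns or strand were used in counting is not given in the sources used here. Nuclei with 200 to 7500 genes and at most 5% mitochondrial UMIs were kept, integrated with Seurat 5.3.0 (SCTransform, 3000 features, of which the 6 that were among the 10 genes were removed, leaving 2994, 30 components) and clustered. Doublets were called but kept, and the caller marked 1 and 0 nuclei in WT mouse 1 and GKO mouse 1, where it did not work. Counts were summed per mouse and type (at least 10 nuclei per mouse) and tested with edgeR 4.0.16 (quasi-likelihood, TMM, filterByExpr, Benjamini-Hochberg over all genes of a type). CPM is a gene's share of that sum scaled to the usual library total, and intervals are exact Poisson.

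The 10 genes and the gene lists were chosen with earlier results of these data known, and the rule that names clusters was completed after the clusters were seen. The text names the 10 genes, list genes that passed the threshold or the 3 of lowest p per list, and the 3 genes most like each of the 10. Same-numbered WT and GKO mice deviated together (correlations 0.57, 0.18 and 0.22), which by a fixed limit of 0.1 counts as pairing, although differently numbered pairs of date 2 reached 0.30 and 0.22. Alternatives were DESeq2 1.42.0, library size alone, no filter, a replicate block, a date term, doublets removed, stricter filters and each mouse left out. The code was tested on simulated data.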

Additional observations from a re-analysis of the deposited data

Results flagged for a closer look

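The effect of J20 (2 libraries against 6) differed between neuron types for 3 results, by edgeR's test of the difference with the mouse as a block. For Stmn2 it was larger in granule than in CA1 neurons by 0.60 on the log2 scale and larger than in CA3 neurons by 0.94, and for Mapt it was larger in granule than in CA3 neurons by 0.43. The comparison was chosen after the values were seen, transgene and age cannot be told apart in it, and these differences were not repeated under the alternatives.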

How the results depend on the processing

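None of the 10 genes and no list gene was called between GKO and WT under any alternative run. The count of the 10 genes at an unadjusted p under 0.05 was 1, and it was 8 with the replicate block, 9 with a date term, 3 with doublets removed, 2 with the stricter filter on nuclei and 2 to 7 when a mouse was left out. Over all genes 1 call became 89 without a filter on low counts, 4 with DESeq2, 23 with the replicate block, 22 with a date term, 0 with doublets removed, 0 with the stricter filter and 4 to 12 when a mouse was left out. Of the fold changes followed between GKO and WT, 100 alternatives kept direction and call and 4 reversed. Mapt in excitatory neurons became 0.083 without WT mouse 1 and 0.045 without GKO mouse 3 (range with a mouse left out -0.104 to 0.083), and Mapt in microglia became 0.097 without WT mouse 1 (range -0.546 to 0.097) and 0.059 with the stricter filter. The cause was not tested. With a mouse left out, Map7 in oligodendrocytes ranged from 0.037 to 0.461, Map1b in granule cells from 0.026 to 0.290 and Dclk1 in astrocytes from 0.069 to 0.183. The 62 values past 0.3 between the J20 libraries became 141 by mean UMIs per nucleus. In J20 granule cells the 1 call became 3 among date 2 libraries alone and 1 to 2 when a library was left out, and leaving out a J20 library or other dates leaves 1 J20 library, assumed to vary like the others. Removing doublets and the stricter filter left some types without enough nuclei, and these were not run there. At this depth Map1a, Map6 and Stmn4 each missed the filter on low counts in 1 type.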
